A study of Mus musculus with 6 samples.

Results

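The set holds 10 genes that oxidise choline to glycine or carry methyl groups around the methionine cycle: Chdh, Aldh7a1, Bhmt, Bhmt2, Dmgdh, Sardh, Mat2a, Ahcy, Gnmt and Pemt. They are 10 of the 53390 genes to which transcripts were summed. The members were chosen by pathway with the measured contrast between 2i and serum in these libraries in view, so their differences between media are given as a description, with no test.

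RNA was measured by stranded, poly(A)-selected sequencing in mouse embryonic stem cells without functional Dnmt1, Dnmt3a and Dnmt3b (triple knockout, TKO), a male line made from J1 cells of the 129S4/SvJae strain and grown without feeder cells. The 3 TKO-serum libraries came from cells in high-glucose DMEM with 15% FCS and LIF at 500 U/ml. The 3 TKO-2i libraries came from cells kept for 14 days in N2B27 with LIF at 1000 U/ml, CHIR99021 at 3 µM against GSK3 and PD0325901 at 1 µM against MEK. Each library was made from 500 ng of RNA, and the labels call the replicates biological. The media differed in basal medium, serum, LIF dose and inhibitors, and the parts of these cannot be told apart. Both groups carried the knockout, so no comparison with methylated cells was possible. The labels give pools of 12 libraries each, without saying which library was in which pool. In bulk RNA, fewer cells with a transcript and less of it per cell cannot be told apart.

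Depth was 46228700, 44180642 and 43896549 estimated counts in TKO-2i replicates 1, 2 and 3. It was 38274042, 51932739 and 44827609 in TKO-serum. Levels are given in CPM, counts scaled to the normalised library size, when 1 gene is compared between samples, and in TPM, which also corrects for transcript length, when genes are compared with each other. A floor of 3 counts in a library was 0.0578 to 0.0784 CPM on the depths above, before they were normalised, and covers counting error only. Errors after ± are SD over 3 libraries unless named SE, and log2 fold changes are TKO-2i over TKO-serum.

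Transcripts of the targeted genes were still present. Dnmt1 stood at 149.6, 153.5 and 155.2 CPM in TKO-2i and at 129.3, 129.6 and 128.6 CPM in TKO-serum. Dnmt3a stood at 7.14, 7.46 and 7.36 CPM in TKO-2i and at 30.2, 29.4 and 30.7 CPM in TKO-serum. Dnmt3b stood at 19.0, 20.3 and 20.6 CPM in TKO-2i and at 43.1, 42.3 and 44.0 CPM in TKO-serum. For each gene the groups did not overlap, with Dnmt1 higher and the other 2 lower in TKO-2i. The log2 fold changes were 0.24 (adjusted p = 0.0022), -2.04 (adjusted p = 6.3e-08) and -1.11 (adjusted p = 7.1e-07), by the quasi-likelihood test of edgeR, adjusted over all genes by the Benjamini-Hochberg method. With limma on log2(TPM + 1), Dnmt1 did not pass (adjusted p = 0.124). These sums take in parts of the genes outside any deletion, and the deleted exons are not named in the sources used here, so they check the genotype only in small part.

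Choline is oxidised in mitochondria to betaine aldehyde and then to betaine, whose methyl group can be passed to homocysteine to make methionine. The dimethylglycine left over is demethylated stepwise to sarcosine and glycine, with electrons passed to the electron transfer flavoprotein. Methionine is activated to S-adenosylmethionine, the methyl donor of most methyltransferases, and the pathway is best known from liver and kidney.

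Of the 10 members, 9 passed the filter on low counts and Sardh did not. By CPM in each sample, TKO-2i lay wholly above TKO-serum for 5 members and wholly below for 4, Chdh and Sardh among the latter, and the groups overlapped for Mat2a. Over all genes tested these shares were 34.0% above and 33.5% below. Since the members were chosen with this contrast in view, nothing is read from these counts. Chdh passed the filter only through its counts in TKO-serum. For the other genes, calls are at an adjusted p under 0.05. Over all 18177 genes tested, 62.5% were called, 31.9% higher and 30.6% lower, and with limma on log2(TPM + 1) the calls were 4209 higher and 5839 lower. The median log2 fold change over all genes tested was 0.01, with quartiles of -0.51 and 0.40.

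**Figure D1:**
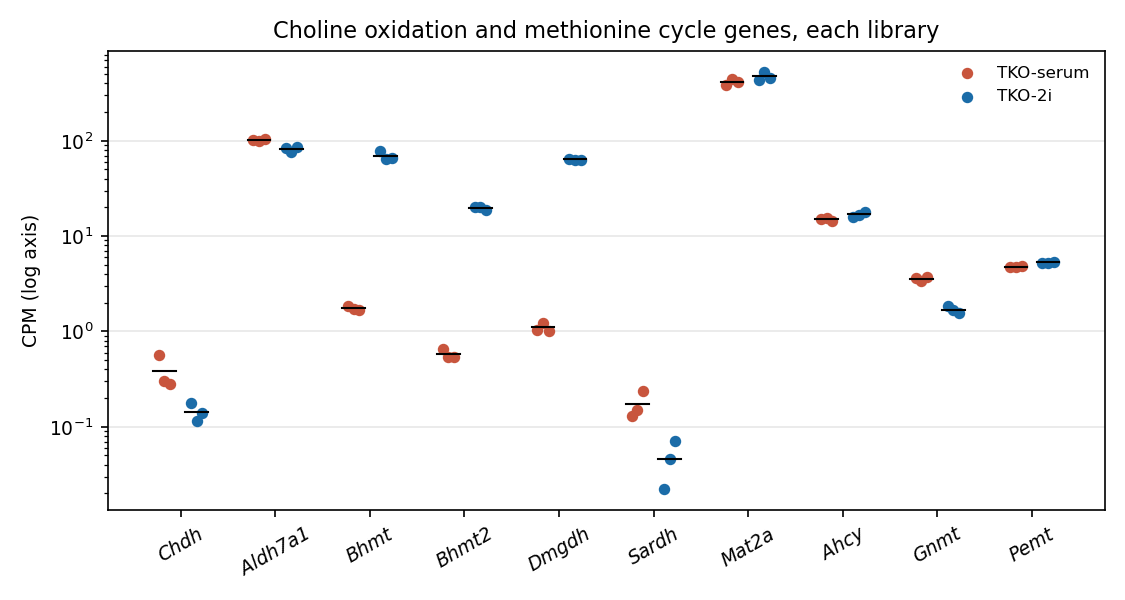
CPM of the 10 members in each library on a log axis, with points for libraries and bars for the group means, TKO-2i beside TKO-serum. Bhmt, Bhmt2 and Dmgdh stood at 69.1, 19.8 and 63.7 CPM in TKO-2i and at 1.75, 0.579 and 1.10 CPM in TKO-serum.

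The order of levels between genes changed with the medium. In TKO-2i, mean TPM ran from Mat2a (296.9 ± 38.1) through Aldh7a1 (51.1 ± 0.955), Bhmt (34.8 ± 2.78), Dmgdh (24.99 ± 1.43), Ahcy (14.4 ± 3.37), Bhmt2 (10.8 ± 1.08), Pemt (9.91 ± 0.718) and Gnmt (2.22 ± 0.289) to Chdh (0.0288 ± 0.00469) and Sardh (0.0177 ± 0.0114). The libraries of neighbours in this order overlapped for Ahcy and Bhmt2, for Bhmt2 and Pemt, and for Chdh and Sardh. In TKO-serum, the order was Mat2a (267.9 ± 21.6), Aldh7a1 (66.8 ± 3.97), Ahcy (14.8 ± 1.39), Pemt (10.7 ± 0.931), Gnmt (5.14 ± 0.257), Bhmt (0.943 ± 0.0299), Dmgdh (0.558 ± 0.121), Bhmt2 (0.341 ± 0.0206), Sardh (0.191 ± 0.0375) and Chdh (0.0951 ± 0.0527). There, the libraries of neighbouring genes did not overlap. Bhmt thus ranked above Pemt and Gnmt in TPM in TKO-2i and below both in TKO-serum. The place of Ahcy depends on how reads were divided with its near-identical copy Gm4737, whose mean TPM of 345.4 in TKO-2i and 308.4 in TKO-serum was above that of every member.

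Chdh (ENSMUSG00000015970, chromosome 14) encodes choline dehydrogenase, which makes betaine aldehyde. It had 8, 5 and 6 estimated counts in TKO-2i and 22, 16 and 13 in TKO-serum, or 0.179, 0.114 and 0.141 CPM against 0.570, 0.301 and 0.283 CPM. Every TKO-2i library was below every TKO-serum library, at means of 0.144 ± 0.0326 and 0.385 ± 0.161 CPM. The log2 fold change was -1.36 (SE 0.40), beside a median of -0.15 over chromosome 14, and -0.089 with limma on log2(TPM + 1), where so low a gene moves little. In TPM, Chdh was above 1.46% of tested genes in TKO-2i and 1.41% in TKO-serum. Cacna1d runs on the opposite strand and shares 589 exon bases with Chdh, with 0, 5 and 4 counts in TKO-2i and 27, 27 and 17 in TKO-serum. Whether strand was used in counting is not stated, so the reads of the overlapping genes cannot be told apart from these files.

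Aldh7a1 (ENSMUSG00000053644, chromosome 18) encodes an aldehyde dehydrogenase that oxidises betaine aldehyde to betaine and also acts in lysine degradation. Its levels were 84.8, 76.5 and 85.1 CPM in TKO-2i and 102.0, 99.5 and 103.8 CPM in TKO-serum. The TKO-2i libraries were all lower, at means of 82.1 ± 4.87 and 101.8 ± 2.16 CPM. On the log2 scale the difference was -0.31 (SE 0.06), beside a median of -0.06 over chromosome 18. In TPM, Aldh7a1 was above 83.9% of tested genes in TKO-2i and 87.7% in TKO-serum, far above Chdh in each library. The transcript Aldh7a1-201 held 91.7 ± 2.28% of the gene's TPM in TKO-2i and 91.4 ± 3.58% in TKO-serum. Phax, on the opposite strand with 300 shared exon bases, stood at 61.2 CPM in TKO-2i and 58.5 in TKO-serum.

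The methyl group of betaine goes to homocysteine through Bhmt, betaine-homocysteine methyltransferase. Bhmt (ENSMUSG00000074768, chr13:93616675-93637961, minus strand) had 3466, 2816 and 2811 estimated counts in TKO-2i and 71, 92 and 77 in TKO-serum. As CPM these were 77.3, 64.0 and 65.9 in TKO-2i and 1.84, 1.73 and 1.68 in TKO-serum. All TKO-2i libraries were far higher, at means of 69.1 ± 7.20 and 1.75 ± 0.0844 CPM. The ratio of means was 39.5, and the log2 fold change of 5.31 (SE 0.10) ranked 16 from the highest of 18177 genes, beside a median of -0.11 over the 795 tested genes of chromosome 13. In TPM, Bhmt was above 77.6% of tested genes in TKO-2i and 22.3% in TKO-serum. The transcript Bhmt-201 held 99.1 ± 0.208% of its TPM in TKO-2i and 98.5 ± 1.60% in TKO-serum. The copies Bhmt-ps1 and Gm5096 took few reads, and with them summed in, a choice made after the data were seen, the log2 fold change was 5.28. With limma on log2(TPM + 1) that of Bhmt was 4.20.

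Bhmt2 (ENSMUSG00000042118, chr13:93655720-93674302, minus strand) encodes a related enzyme that uses S-methylmethionine as its methyl donor. It had 910, 886 and 807 estimated counts in TKO-2i and 25, 29 and 25 in TKO-serum, or 20.3, 20.1 and 18.9 CPM against 0.648, 0.545 and 0.544 CPM. The TKO-2i libraries were again all higher, at means of 19.8 ± 0.755 and 0.579 ± 0.0599 CPM. The ratio of means was 34.2 and the log2 fold change was 5.10 (SE 0.10), rank 20 from the highest, and 3.13 with limma on log2(TPM + 1). In TPM, Bhmt2 was above 56.7% of tested genes in TKO-2i and 10.1% in TKO-serum. The gene has a single annotated transcript. The ratio of Bhmt to Bhmt2 in TPM was 3.55, 2.91 and 3.24 in TKO-2i and 2.63, 2.86 and 2.82 in TKO-serum. These ratios lay close together in both media, with all TKO-2i values above the TKO-serum ones. Over 1091 aligned bases, the coding sequences of Bhmt-201 (1224 bases) and Bhmt2-201 (1092 bases) were 75.3% identical.

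Methionine synthase, Mtr, is the other enzyme that remethylates homocysteine, with a methyl group from folate. It stood at 68.7, 82.9 and 72.3 CPM in TKO-2i and at 66.7, 71.2 and 66.5 CPM in TKO-serum, and the groups overlapped. Its log2 fold change was 0.13 (SE 0.08, adjusted p = 0.17), beside 5.31 for Bhmt. Mtr was higher in TKO-2i in each pair of same-numbered replicates. With the replicate number as a block, all 11 genes of the list of other methionine cycle genes, Mtr included, were called (6 rises and 5 falls). The falls include Mat1a, which passed the filter only through TKO-serum. In TPM the ratio of Bhmt to Mtr was 2.41, 1.90 and 2.15 in TKO-2i, while the ratio of Mtr to Bhmt was 15.5, 16.6 and 16.9 in TKO-serum. Bhmt was thus the more abundant of the 2 transcripts in every TKO-2i library and Mtr in every TKO-serum library. Mtr was not among the genes named by rule and was chosen for this ratio after its values were seen.

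Dmgdh (ENSMUSG00000042102, chr13:93674433-93752833, plus strand) encodes dimethylglycine dehydrogenase, the mitochondrial flavoprotein that turns dimethylglycine into sarcosine. It had 2895, 2778 and 2702 estimated counts in TKO-2i and 40, 66 and 47 in TKO-serum. As CPM these were 64.6, 63.2 and 63.4 in TKO-2i and 1.04, 1.24 and 1.02 in TKO-serum. The TKO-2i libraries were all higher and differed little among themselves, at means of 63.7 ± 0.775 and 1.10 ± 0.122 CPM. The ratio of means was 57.9, and the log2 fold change of 5.84 (SE 0.08) ranked 11 from the highest of all genes tested, and it was 4.06 with limma on log2(TPM + 1). In TPM, Dmgdh was above 71.6% of tested genes in TKO-2i and 15.8% in TKO-serum. The ratio of Dmgdh to Bhmt in TPM was 0.721 ± 0.0591 in TKO-2i and 0.590 ± 0.112 in TKO-serum. Dmgdh-201, the coding transcript, held 99.6 ± 0.368% of the gene's TPM in TKO-2i and 82.4 ± 16.01% in TKO-serum, where by estimated counts its share was 98.7 ± 1.26%. The rest lay on Dmgdh-202, a transcript of 545 bases with no coding sequence. AW495222, on the opposite strand with 215 shared exon bases, had 10, 2 and 2 counts in TKO-2i and 2, 4 and 2 in TKO-serum.

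Sardh (ENSMUSG00000009614, chromosome 2) encodes sarcosine dehydrogenase, which makes glycine from sarcosine. It had 1, 2 and 3 estimated counts in TKO-2i and 5, 8 and 11 in TKO-serum. Each TKO-2i library held fewer counts than each TKO-serum library, all close to the floor. The ratio of TKO-serum to TKO-2i from the summed counts of 24 and 6 was 3.82, with a 95% counting interval of 1.52 to 11.4. In TPM, Dmgdh exceeded Sardh in each of the 6 libraries. The coding sequences of Dmgdh-201 (2610 bases) and Sardh-202 (2760 bases) were 60.2% identical over 2428 aligned bases.

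The list of partners of these dehydrogenases holds the electron transfer flavoprotein genes Etfa and Etfb, its dehydrogenase Etfdh, and Pipox, which oxidises sarcosine in peroxisomes. Of the 4 genes, all tested, 3 rose in TKO-2i and Pipox was not called, with a median log2 fold change of 0.17 beside 0.01 over all genes. Pipox stood at 58.4 ± 0.905 CPM in TKO-2i and 57.2 ± 1.63 in TKO-serum (log2 fold change 0.03, adjusted p = 0.59), with overlap. Its mean TPM was 40.4 in TKO-2i and 42.0 in TKO-serum, far above that of Sardh. Etfb, the most abundant, stood at 105.5 ± 13.98 CPM in TKO-2i and 77.9 ± 6.004 in TKO-serum (log2 fold change 0.44, adjusted p = 0.0053). Etfdh stood at 30.2 ± 0.880 and 26.3 ± 0.274 CPM (log2 fold change 0.20, adjusted p = 0.0084), a call lost with limma on log2(TPM + 1) (adjusted p = 0.273). Both were higher in 3 of 3 TKO-2i libraries than in any TKO-serum library. In limma 1 of the 4 genes rose. The ratio of Dmgdh to Etfdh in TPM was 1.502 ± 0.0567 in TKO-2i and 0.0362 ± 0.00697 in TKO-serum.

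Mat2a (ENSMUSG00000053907, chromosome 6) encodes the catalytic subunit of methionine adenosyltransferase outside the adult liver, which makes S-adenosylmethionine. Its levels were 432.5, 531.4 and 458.2 CPM in TKO-2i and 389.1, 442.1 and 410.8 CPM in TKO-serum. The groups overlapped, since TKO-serum replicate 2 lay above TKO-2i replicate 1, at means of 474.0 ± 51.4 and 414.0 ± 26.6 CPM. This was a log2 fold change of 0.20 (SE 0.08), below the median of 0.41 over the tested genes of chromosome 6, and it was 0.11 without TKO-2i replicate 2. In TPM, Mat2a was above 97.6% of tested genes in TKO-2i and 97.4% in TKO-serum. The ratio of Mat2a to Mat2b, its regulatory subunit, was 3.90 ± 0.431 in TPM in TKO-2i and 3.65 ± 0.164 in TKO-serum.

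The transcript Mat2a-201 held 64.6 ± 0.955% of the gene's TPM in TKO-2i and 70.0 ± 1.38% in TKO-serum, and Mat2a-202 held 16.7 ± 3.21% and 12.2 ± 1.06%. Retention of introns is a known way in which this gene is regulated. The 3 annotated transcripts of Mat2a with a retained intron together held 13.1%, 12.5% and 13.98% of its TPM in TKO-2i and 9.36%, 12.0% and 12.6% in TKO-serum. The TKO-2i and TKO-serum shares overlapped, at means of 13.2 ± 0.728% and 11.3 ± 1.72%. By estimated counts the shares were 2.49%, 2.38% and 2.67% in TKO-2i and 1.74%, 2.24% and 2.25% in TKO-serum, with every TKO-2i library above every TKO-serum library, so the overlap depended on the unit. Particl, on the opposite strand with 508 shared exon bases, stood at 0.874 CPM in TKO-2i and 0.556 in TKO-serum.

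Ahcy (ENSMUSG00000027597, chromosome 2) encodes S-adenosylhomocysteine hydrolase, which removes the product of methyl transfer. The annotated gene had 15.9, 16.8 and 17.9 CPM in TKO-2i and 15.0, 15.6 and 14.5 CPM in TKO-serum. The groups did not overlap, though they lay close, at means of 16.9 ± 0.983 and 15.0 ± 0.537 CPM. The log2 fold change was 0.17 (SE 0.07) from counts and turned to -0.056 with limma on log2(TPM + 1). Most reads of this sequence were placed on Gm4737, a copy on chromosome 16 that is 99.7% identical over 2083 bases, with a mean of 25324 counts against 715 on Ahcy. Ahcy held 2.39% to 2.94% of the counts of the gene and its copies in a library, and how reads were divided between them cannot be checked from these files.

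Summed over Ahcy, Gm4737 and Gm9826, the levels were 666.3, 587.2 and 647.2 CPM in TKO-2i and 530.3, 528.9 and 530.5 CPM in TKO-serum. All TKO-2i libraries were higher, at means of 633.5 ± 41.3 and 529.9 ± 0.844 CPM, with a log2 fold change of 0.26 (SE 0.06). This sum was chosen after the data were seen. Ahcy-203, a transcript with a retained intron, held 42.7 ± 3.64% of the TPM on the annotated gene in TKO-2i and 52.8 ± 3.96% in TKO-serum. By estimated counts it held 10.4% and 13.8%.

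Gnmt (ENSMUSG00000002769, chromosome 17) encodes glycine N-methyltransferase, which uses S-adenosylmethionine to make sarcosine from glycine. It had 82, 73 and 67 estimated counts in TKO-2i and 141, 179 and 172 in TKO-serum, or 1.83, 1.66 and 1.57 CPM against 3.66, 3.36 and 3.74 CPM. The TKO-2i libraries were all lower, at means of 1.69 ± 0.131 and 3.59 ± 0.198 CPM. This was a log2 fold change of -1.08 (SE 0.12), beside a median of 0.01 over chromosome 17. Gnmt and Dmgdh, which make sarcosine from opposite sides, changed order in TPM. Dmgdh was 11.3 ± 1.00 times Gnmt in TKO-2i, and Gnmt was 9.58 ± 2.60 times Dmgdh in TKO-serum. The transcript Gnmt-201 held 82.6 ± 9.45% of the gene's TPM in TKO-2i and 81.5 ± 4.10% in TKO-serum.

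Pemt (ENSMUSG00000000301, chromosome 11) encodes the methyltransferase that makes phosphatidylcholine from phosphatidylethanolamine. Its levels were 5.27, 5.21 and 5.39 CPM in TKO-2i and 4.72, 4.74 and 4.83 CPM in TKO-serum. The TKO-2i libraries were all slightly higher in CPM, at means of 5.29 ± 0.0955 and 4.76 ± 0.0600. The log2 fold change was 0.15 (SE 0.08), below the median of 0.26 over the tested genes of chromosome 11. It turned to -0.10 with limma on log2(TPM + 1) and to -0.014 with counts from length-scaled TPM, so its direction depended on the scale. Pemt-203 held 44.9 ± 8.72% of the TPM in TKO-2i and 43.7 ± 3.69% in TKO-serum, and Pemt-209 held 29.9 ± 2.34% and 35.8 ± 6.08%.

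Bhmt, Bhmt2 and Dmgdh lie next to each other on chromosome 13. The annotated ends of Bhmt and Bhmt2 were 17758 bases apart, and the starts of Bhmt2 and Dmgdh, which point away from each other, were 130 bases apart. Within 1 Mb of Dmgdh, 14 protein-coding genes were annotated and all were tested. Besides the 3 members these were 11 genes, of which 3 rose, 6 fell and 2 were not called in TKO-2i. Their median log2 fold change was -0.28, with a range of -4.60 to 1.98, beside -0.11 for the whole chromosome. The falls, the median and the lower end of the range include Cmya5 and Thbs4, which passed the filter only through TKO-serum. The lowest of the other neighbours was Serinc5 (-1.47). No difference between the 2 medians is therefore read.

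On the Bhmt side, Jmy and Homer1, the nearest genes, were not called, with log2 fold changes of -0.09 (adjusted p = 0.51) and -0.14 (adjusted p = 0.092). Without TKO-2i replicate 2 both passed, at -0.23 (adjusted p = 0.0293) and -0.17 (adjusted p = 0.0390). This was the only alternative in which Jmy passed, while Homer1 passed in 2 more. Further out, Tent2 rose (0.25, adjusted p = 0.024), and Mtx3 (-0.83, adjusted p = 0.00078) and Serinc5 (-1.47, adjusted p = 1.8e-05) fell. Cmya5 (-3.43) and Thbs4, also counted among the falls, passed the filter only through TKO-serum, so no p is given for them. The call of Tent2 was lost without TKO-serum replicate 1 (adjusted p = 0.0784) and without TKO-serum replicate 3 (adjusted p = 0.0865), with at least 10 counts in every sample (adjusted p = 0.0531) and with limma on log2(TPM + 1) (adjusted p = 0.103). The log2 fold change of Cmya5, a low gene, was -0.10 with limma on log2(TPM + 1). Thbs4 fell, with 3 summed counts in TKO-2i and 85 in TKO-serum, a ratio of TKO-serum to TKO-2i of 27.0 with a 95% counting interval of 8.94 to 133.7.

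On the Dmgdh side, Arsb, the nearest gene, was just past the threshold (log2 fold change -0.38, adjusted p = 0.048). Its call was lost in 5 of the 6 fits with a library left out, all but the one without TKO-2i replicate 2, with adjusted p-values of 0.0718 to 0.111. It was also lost with counts from length-scaled TPM (adjusted p = 0.0609) and with limma on log2(TPM + 1) (adjusted p = 0.0652) and log2(TPM + 0.1) (adjusted p = 0.0865). Lhfpl2 rose from 2.81 ± 0.251 to 11.1 ± 0.830 CPM (log2 fold change 1.98, adjusted p = 9.3e-07). Scamp1 fell (-0.28, adjusted p = 0.0044) and Ap3b1 rose (0.58, adjusted p = 1.9e-05). No neighbour had a log2 fold change as high as those of the 3 members, which were 5.10 to 5.84.

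**Figure D2:**
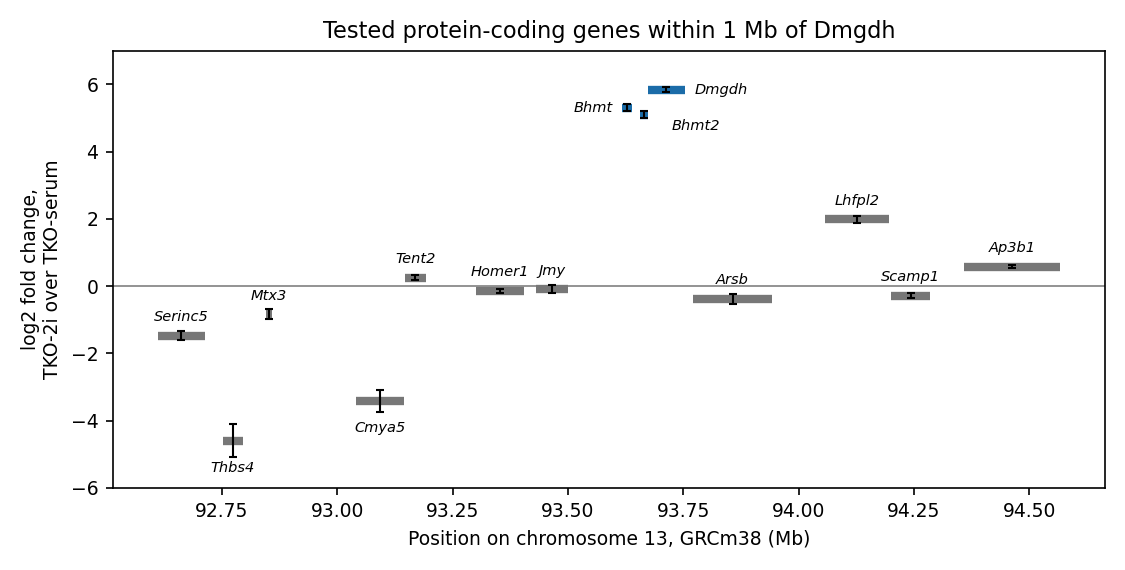
Log2 fold change with its SE (TKO-2i over TKO-serum, y axis) of the 14 protein-coding genes within 1 Mb of Dmgdh, drawn as bars at their position on chromosome 13 of GRCm38 in Mb (x axis). Members are in blue, at 5.10 to 5.84, and the other genes in grey, at -4.60 to 1.98. The lowest of these, Thbs4 and Cmya5, passed the filter only through TKO-serum.

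The stretch between the annotated starts of Bhmt2 and Dmgdh is shown because both genes begin at its ends and both were higher in TKO-2i. It covers chr13:93674303-93674432 on the plus strand, lies in the promoter windows of both genes in the RefSeq table (build GRCm38.p6), and holds 6 CpG in 130 bases with 70.8% G or C. Neither DNA methylation nor factor binding was measured in these libraries.
Bhmt2 to Dmgdh: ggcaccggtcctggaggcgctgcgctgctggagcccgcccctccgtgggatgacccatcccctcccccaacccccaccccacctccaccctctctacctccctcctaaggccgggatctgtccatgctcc

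Promoter windows of 300 bases, 250 before and 50 after a start, were at hand for 9 members as 12 windows, and Aldh7a1 had none. Both strands were searched for the ESRRB core AAGGTCA, the TCF/LEF core CTTTGA, the KLF core GGGCGGGG and the E-box CACGTG. Over all 32851 windows, these were found in 4.72%, 16.003%, 17.6% and 7.15%. Among the member windows, AAGGTCA was found in that of Bhmt, CTTTGA in 1 window of Pemt, and the other 2 motifs in none. The window of Bhmt held AAGGTCA 2 times, and 59 of all windows (0.180%) held it at least 2 times. A match is a description of the sequence and not a measured site.

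The matches of Bhmt are shown because its window was the only member window with the ESRRB core, and Esrrb itself was abundant in both media. They lie 73 and 48 bases before the RefSeq start, inside the first exon of Bhmt-201 in GENCODE M21, at chr13:93637818-93637838 and chr13:93637793-93637813. They are printed on the minus strand, the strand of the gene, from the same RefSeq table (build GRCm38.p6), with the core in capitals.
Bhmt match at 73 bases: ccagatcAAGGTCAgaggcct
Bhmt match at 48 bases: ttggacaAAGGTCAgtgtgca

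CpG content varied among the members' windows beside a median of 7 CpG over all windows. It was highest for Mat2a (34), Bhmt2 (26), Chdh (26 in 1 of its 3 windows and 4 in the others) and Dmgdh (25), between these and the median for Ahcy (13), Gnmt (11) and Bhmt (8), and lowest for Sardh (4) and Pemt (2 and 3). The 3 members with much higher levels in TKO-2i thus had windows both far above the median and near it. The windows of Bhmt2 (chr13:93674253-93674552) and Dmgdh (chr13:93674186-93674485) overlap, so their CpG counts are not separate.

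Genes of choline uptake and phosphatidylcholine synthesis moved in both directions. Of 21 genes, 20 were tested, 10 rose, 6 fell and 4 were not called in TKO-2i, with a median log2 fold change of 0.11. With 1 library left out, the rises were 9 to 10 and the falls 4 to 7. Etnk1, ethanolamine kinase, rose from 155.7 ± 9.996 to 307.1 ± 52.1 CPM (log2 fold change 0.98, adjusted p = 0.0001). In mean TPM it was the highest of the list in TKO-2i, while Chka was the highest in TKO-serum. Pld2, a phospholipase that releases choline from phosphatidylcholine, rose with a log2 fold change of 0.95 (adjusted p = 8.7e-05). Etnk1 lies on chromosome 6 and Pld2 on chromosome 11, with medians of 0.41 and 0.26. Chka, a choline kinase, fell from 89.9 ± 3.31 to 38.2 ± 5.85 CPM (-1.23, adjusted p = 1.3e-05). Pcyt1b, which makes CDP-choline in the same branch, fell from 101.9 ± 2.13 to 33.3 ± 1.05 CPM (-1.61, adjusted p = 8.5e-08). For these 4 genes all 3 libraries of each group lay on 1 side of the other group. The choline carrier Slc44a1, chosen after its values were seen, rose from 54.4 ± 3.64 to 96.2 ± 7.26 CPM (0.82, adjusted p = 2.3e-05). The carrier Slc5a7 had 3 counts or fewer in every library.

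Among the other methionine cycle genes, all 11 tested, 3 rose, 5 fell and 3 were not called, and the median log2 fold change was 0.10. The count of 3 rises was 1 without TKO-serum replicate 3 and 6 with the replicate number as a block. The count of 5 falls was 4 in every fit with 1 library left out. Mat2b, the most abundant, stood at 85.6 ± 3.86 CPM in TKO-2i and 77.8 ± 1.53 in TKO-serum (0.14, adjusted p = 0.056) and passed without TKO-2i replicate 2 (adjusted p = 0.0111) and with the replicate number as a block (adjusted p = 0.0232). Slc25a26, the mitochondrial carrier of S-adenosylmethionine, rose (0.46, adjusted p = 0.00025), and so did Bmt2 (0.25, adjusted p = 0.018), a methyltransferase also known as Samtor, which was not called without TKO-serum replicate 3 (adjusted p = 0.0697) or with limma on log2(TPM + 1) (adjusted p = 0.282). Both lie on chromosome 6, with its median of 0.41, and Mat2b lies on chromosome 11, with its median of 0.26. Mettl16, a methyltransferase that acts on Mat2a RNA, fell from 143.0 ± 4.39 to 98.6 ± 4.69 CPM (-0.54, adjusted p = 6e-05), on chromosome 11. Mmachc, a cobalamin-processing protein, fell (-0.47, adjusted p = 4.2e-05). Mat1a, the adult liver counterpart of Mat2a, had 6, 0 and 8 counts in TKO-2i and 34, 34 and 31 in TKO-serum (-2.74), and was chosen after its values were seen. It passed the filter only through TKO-serum, so no p is given. Mat1a is still counted among the 5 falls and in the median. With at least 10 counts in every sample, where Mat1a was not tested, 2 genes of the list rose and 4 fell.

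Genes of methionine salvage and polyamine synthesis, all 10 tested, had 3 rises, 5 falls and 2 not called, and their median was -0.16. The count of falls was 3 without TKO-2i replicate 3, without TKO-serum replicate 1 and without TKO-serum replicate 2. Odc1, ornithine decarboxylase and the most abundant of the list, fell from 719.1 ± 24.1 to 447.3 ± 22.7 CPM (-0.68, adjusted p = 1.1e-05), and Srm, spermidine synthase, fell from 294.2 ± 12.3 to 200.2 ± 21.7 CPM (-0.56, adjusted p = 0.00042). The salvage enzymes Apip (0.67, adjusted p = 0.00028) and Mtap (0.28, adjusted p = 0.0026) rose.

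The folate enzymes and carriers, which supply the methyl group that Mtr uses, numbered 19 genes, of which 18 were tested, 9 rose, 3 fell and 6 were not called. Their median log2 fold change was 0.28. Aldh1l1, which oxidises formyl-tetrahydrofolate, stood at 55.001, 49.4 and 52.6 CPM in TKO-2i and 7.26, 6.47 and 7.53 CPM in TKO-serum. All TKO-2i libraries were higher, with a log2 fold change of 2.89 (adjusted p = 4.2e-08), beside 0.41 for chromosome 6. On chromosome 11, with its median of 0.26, the folate carrier Slc46a1 rose (1.22, adjusted p = 1.2e-05), as did Shmt1 (0.38, adjusted p = 0.00045), the most abundant gene of the list. The folate receptor Folr1 fell (-1.03, adjusted p = 8.8e-06). Mthfd1 fell by little (-0.15, adjusted p = 0.019) and was not called without TKO-2i replicate 3 (adjusted p = 0.0653) or without any 1 of the 3 TKO-serum replicates (adjusted p = 0.0553 to 0.0750). Ftcd was not tested, with 5 summed counts in TKO-2i and 24 in TKO-serum.

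Homocysteine that is not remethylated can go to cysteine. Of 10 genes of transsulfuration and glutathione synthesis, 9 were tested, 3 rose, 4 fell and 2 were not called, with a median log2 fold change of -0.15. Gss, glutathione synthetase, rose from 31.0 ± 1.28 to 134.5 ± 15.5 CPM (2.12, adjusted p = 3.4e-07), and Cdo1, cysteine dioxygenase, from 7.03 ± 0.592 to 17.9 ± 1.15 CPM (1.35, adjusted p = 3.2e-06). Cth, which makes cysteine from cystathionine, fell (-0.55, adjusted p = 0.00015), as did Csad, an enzyme of taurine synthesis (-0.61, adjusted p = 4.6e-05), and Gclm, the most abundant gene of the list (-0.32, adjusted p = 0.0005). Cbs, the enzyme before Cth, rose from 24.99 ± 0.457 to 43.2 ± 5.67 CPM (0.79, adjusted p = 0.0001) and was chosen after its values were seen. Sqor was not tested, with 3 summed counts in TKO-2i and 37 in TKO-serum.

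Methyltransferases of small molecules, which use S-adenosylmethionine as Gnmt and Pemt do, numbered 11, of which 7 were tested, 6 rose and Coq3 was not called, with a median log2 fold change of 0.67. Without the filter on low counts, where more genes were tested, 1 of them fell. Gamt, which makes creatine, rose from 1.95 ± 0.401 to 3.57 ± 0.715 CPM (0.86, adjusted p = 0.0051), and Tpmt from 4.87 ± 0.433 to 7.99 ± 0.433 CPM (0.71, adjusted p = 0.00024). Coq5 of ubiquinone synthesis, the most abundant, rose (0.19, adjusted p = 0.0071). With limma on log2(TPM + 1), Tpmt (adjusted p = 0.0875) and Coq5 (adjusted p = 0.430) were not called. Nnmt, nicotinamide N-methyltransferase, had 84, 53 and 59 counts in TKO-2i and 3, 4 and 3 in TKO-serum (4.31, SE 0.32). It was chosen after its values were seen and passed the filter only through TKO-2i, so its p is left out. Nnmt is still counted among the 6 rises and in the median. With at least 10 counts in every sample, where Nnmt was not tested, 5 rose. Inmt had 0 counts in every library, and Hnmt, Pnmt and Asmt were not tested. Counts in TKO-2i and TKO-serum were 0, 1 and 1 against 4, 3 and 2 for Hnmt and 0, 0 and 1 against 10, 3 and 4 for Pnmt. Both were lower in every TKO-2i library, close to the floor. Asmt overlapped, with 4, 3 and 3 counts against 3, 2 and 3.

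Betaine is also an osmolyte that cells take up. Of 8 genes of betaine and osmolyte transport, 6 were tested, 1 rose, 1 fell and 4 were not called, and the median log2 fold change was -0.12. The taurine carrier Slc6a6 rose from 232.7 ± 1.74 to 356.4 ± 7.66 CPM (0.61, adjusted p = 7.7e-06; chromosome 6, median 0.41). Slc38a2, a carrier of small neutral amino acids, fell from 348.2 ± 13.1 to 102.3 ± 9.15 CPM (-1.77, adjusted p = 3e-07). Akr1b3, aldose reductase and the most abundant, stood at 321.1 ± 46.5 CPM in TKO-2i and 336.9 ± 32.6 in TKO-serum (-0.07, adjusted p = 0.61) and turned to 0.052 without TKO-2i replicate 2 and to 0.013 without TKO-serum replicate 1. The count of rises was 2 without TKO-2i replicate 1. The count of falls was 3 without TKO-2i replicate 2 and 2 without TKO-2i replicate 3 or without TKO-serum replicate 3. The betaine carrier Slc6a12 was not tested.

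In lysine degradation, the other pathway of Aldh7a1, all 5 genes were tested, 1 rose, 3 fell and 1 was not called, with a median log2 fold change of -0.99. Aass, the enzyme at the entry of this pathway, stood at 0.223, 0.318 and 0.399 CPM in TKO-2i and at 23.4, 23.4 and 23.6 CPM in TKO-serum. All TKO-2i libraries were far lower, with a log2 fold change of -6.22 (SE 0.13), beside 0.41 for chromosome 6. Aass and Aadat, both counted among the falls and in the median, would not have passed the filter without TKO-serum, so neither p is given. The other genes of the list had log2 fold changes of -0.99 (Crym), -0.014 (Dhtkd1) and 0.36 (Gcdh). The median of -0.99 thus depended on Aass and Aadat. Crym fell (-0.99, adjusted p = 0.00079) and Gcdh, the most abundant, rose (0.36, adjusted p = 0.00034). Aadat had 2 summed counts in TKO-2i and 72 in TKO-serum, a ratio of TKO-serum to TKO-2i of 34.4 with a 95% counting interval of 9.17 to 289.1, and was chosen after its values were seen. Aldh7a1 itself, with a log2 fold change of -0.31, was lower than in TKO-serum by far less than Aass.

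**Figure D3:**
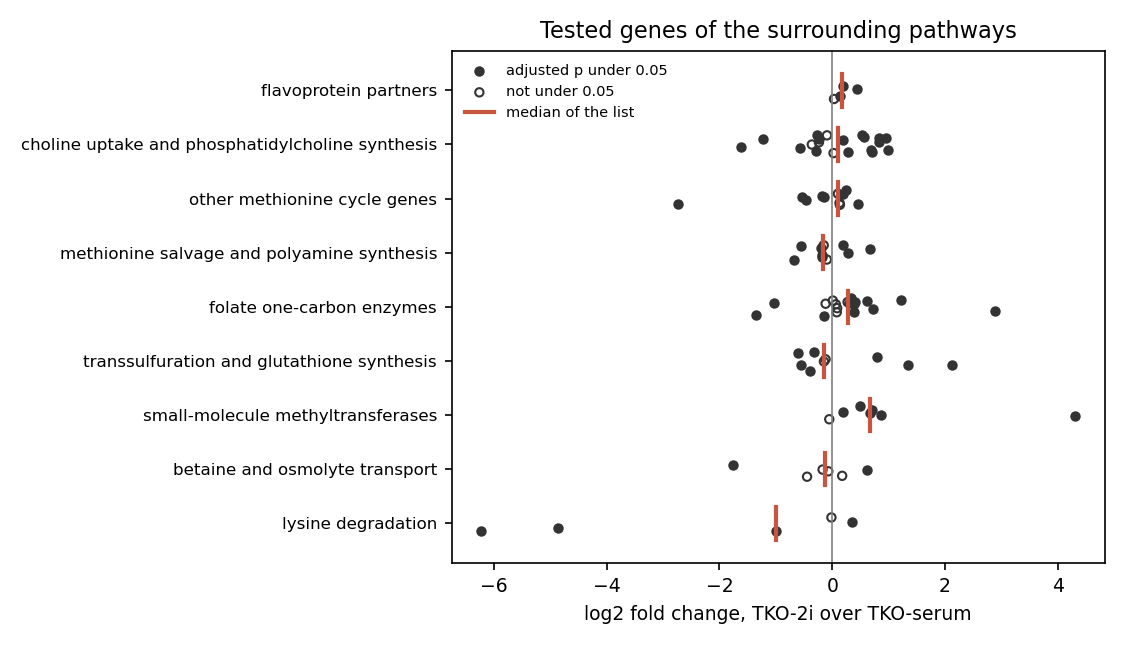
Log2 fold changes (TKO-2i over TKO-serum, x axis) of the tested genes of the 9 pathway lists (y axis), filled where the adjusted p was under 0.05, with the median of each list as a bar. Medians ran from -0.99 for lysine degradation to 0.67 for small-molecule methyltransferases. The first includes Aass and Aadat and the second Nnmt, each of which passed the filter only through the medium where it was higher.

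Markers of the labelled cell type were abundant. All 8 embryonic stem cell markers were tested, 2 rose, 4 fell and 2 were not called, and the median log2 fold change was -0.20. Their summed TPM was 5499.9, 5028 and 4986 in TKO-2i and 6345, 6013 and 6118 in TKO-serum. Dppa5a was the most abundant and was not called (-0.14, adjusted p = 0.34), though it passed with the replicate number as a block (adjusted p = 0.0131). Under that block 2 markers rose and 6 fell, so Pou5f1, the other gene not called (-0.18), passed too. Esrrb rose from 669.5 ± 10.6 to 844.2 ± 20.9 CPM (0.33, adjusted p = 0.00021) and Nanog from 489.9 ± 19.1 to 743.5 ± 38.3 CPM (0.60, adjusted p = 2.7e-05; chromosome 6, median 0.41). Utf1 (-1.33, adjusted p = 2.7e-06) and Sox2 (-0.41, adjusted p = 9.7e-05) fell.

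Since liver and kidney use these enzymes most, markers of both were measured. Among the liver and endoderm markers reported here, Hnf4a rose from 3.08 ± 0.327 to 6.51 ± 0.462 CPM (1.08, adjusted p = 4.6e-05), and Apoa1 (-0.39, adjusted p = 0.49) and Gata4 (-0.17, adjusted p = 0.26) were not called. Foxa2 had 6 summed counts in TKO-2i and 47 in TKO-serum, a ratio of TKO-serum to TKO-2i of 7.48 with a 95% counting interval of 3.19 to 21.4; these last 3 are outside the naming rule and were not followed singly through the alternatives. Gata6 fell (-1.75, adjusted p = 9.1e-05), and so did Sox17 (-0.56, adjusted p = 0.012), which was not called without TKO-serum replicate 2 (adjusted p = 0.0561) or with counts from length-scaled TPM (adjusted p = 0.0579). Of the defining liver genes, Alb and Cyp7a1 had 3 counts or fewer in every library, and Ttr and Cyp7a1 had 0 in TKO-2i. Afp had 2, 3 and 1 counts in TKO-2i and 9 in each TKO-serum library. Serpina1a went the other way, with 5, 2 and 7 counts in TKO-2i and 1, 0 and 0 in TKO-serum, as did its near-identical copy Serpina1b, with 7.0, 10.6 and 8.5 counts against 0.

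Of 8 kidney tubule markers, 3 were tested and all 3 fell in TKO-2i, with a median log2 fold change of -2.88. Their summed TPM was 2.01, 2.20 and 1.44 in TKO-2i and 12.5, 15.6 and 14.2 in TKO-serum, higher in each TKO-serum library. Lrp2, the most abundant, fell from 124.3 ± 9.78 to 16.9 ± 3.38 CPM (-2.88, adjusted p = 5.4e-07). Cubn stood at 22.5 ± 1.496 CPM in TKO-serum and 0.183 ± 0.0469 in TKO-2i (-6.93). Cubn is counted among the 3 falls but passed the filter only through TKO-serum, so no p is given. Umod and Slc22a6 had 0 counts in every library, and Slc34a1 had 3 or fewer.

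Of 8 fibroblast feeder markers, 4 were tested, 1 rose, 2 fell and 1 was not called, with a median log2 fold change of -0.23. Their summed TPM was 6.10, 6.79 and 5.99 in TKO-2i and 6.48, 7.06 and 6.58 in TKO-serum, with overlap. Thy1, the most abundant, fell (-0.42, adjusted p = 0.0046) and Pdgfrb rose from 3.08 ± 0.339 to 9.39 ± 1.505 CPM (1.62, adjusted p = 1.9e-05). Of those not tested, Dcn had 1 summed count in TKO-2i and 33 in TKO-serum. Its ratio of TKO-serum to TKO-2i was 31.5, with a 95% counting interval of 5.27 to 1281. Summed counts in TKO-2i and TKO-serum were 1 and 10 for Col3a1 and 3 and 9 for Postn. Lum had 4, 1 and 1 counts in TKO-2i and 3, 0 and 0 in TKO-serum. The part of other cell types in the levels of the members was not tested. An exact permutation of 3 against 3 samples cannot give a two-sided p under 0.1, so single values were not tested that way.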

How the data were processed

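The authors deposited estimated counts (expected counts, not normalised) and TPM per transcript for each of the 6 libraries, with the effective length of each transcript in bases. The deposited columns look like those of salmon, and the quantifier, its version and its index are not given in the sources used here. The paper's RNA sequencing methods name Tophat V2 on mm10, RPKM and DEseq, which do not give estimated counts per transcript. For the TKO libraries the paper also cites a previous article for the processing, and that article was not read here. Between 85.1% and 85.8% of estimated counts above 0 were not whole.

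By identifier, 136100 of 136288 transcripts (99.9%) were found in GENCODE M21 on GRCm38, the build of mm10, and summed to 53390 genes. Unmatched transcripts held 0.0473% to 0.0643% of a library's counts. Rounded sums were filtered with filterByExpr, normalised by TMM (factors 0.9705 to 1.0267) and fitted with edgeR 4.0.16 in R 4.3.3 (glmQLFit and glmQLFTest, medium as the only factor, Benjamini-Hochberg over 18177 genes, calls at an adjusted p under 0.05). The SE was the absolute log2 fold change over the square root of F. The fit was tested on simulated data. Ratios of low counts have exact conditional binomial intervals at 95% from scipy. Depth was 38274042 to 51932739 counts per library, and 3 counts were taken as the floor. Replicates of a medium differed by more than counting noise in every pair. The chi-square per gene was 4.69 to 16 between TKO-serum replicates, and in TKO-2i it was 7.08 between replicates 1 and 3 but 44.99 and 27.44 between replicate 2 and these.

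The members and the 14 lists of other genes were chosen with earlier results of these data known. From each list, the named genes are the highest in mean TPM over the 6 libraries and up to 2 rises and 2 falls with the largest log2 fold change among genes past the threshold, no overlap between media and mean CPM not under 1. Every tested protein-coding gene within 1 Mb of Dmgdh is named. Genes outside this rule are also named, among them genes at low counts, not tested or not called, and others said to be chosen after their values were seen. One of the liver and endoderm markers is not reported here, so the counts, median and summed TPM of that list are not given.

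Near-identical copies share at least 95% identity over at least 500 bases by blast 2.17.0. Promoter windows and printed sequences come from the RefSeq table (build GRCm38.p6, 32851 windows for 27025 symbols). Coding sequences come from the GENCODE M21 transcripts. Scripts ran in Python 3.11.15.

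The alternatives were the replicate number as a block, DESeq2 1.42.0, edgeR with the size factors of DESeq2, all genes with any count, genes with 10 or more counts in each library, length-scaled TPM as counts, limma 3.58.1 with trend on log2(TPM + 1) and on log2(TPM + 0.1), each sample left out in turn, shares of estimated counts for transcripts, and motif windows without the bases after the start. Libraries of other lines were not analysed.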

Additional observations from a re-analysis of the deposited data

How the results depend on the processing

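Genes called numbered 11361, and 10152 to 12568 with 1 library left out, 12539 with the replicate number as a block, 10880 with DESeq2, 12121 without a filter, and 10048 with limma on log2(TPM + 1), where 4209 were higher and 5839 lower, against 5804 and 5557 in the main fit. No alternative moved the median of the shared genes by more than 0.10 on the log2 scale. Same-numbered libraries correlated in their deviations from the group means across genes with r of 0.242, 0.329 and 0.014, and 5 of 6 samples correlated best with their own number. What same numbers share is not stated. Under the block, rises among other methionine cycle genes went from 3 to 6 and falls in betaine and osmolyte transport from 1 to 2.

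Without a filter on low counts, falls were 1 among small-molecule methyltransferases and 3 in betaine and osmolyte transport. With limma at either pseudocount, rises were 1 among flavoprotein partners, 1 among other methionine cycle genes and 0 among the Dnmt genes. With 1 library left out, rises in betaine and osmolyte transport were 1 to 2 and its falls 1 to 3, falls in salvage and polyamine synthesis 3 to 5, and rises among other methionine cycle genes 1 to 4. Falls among other methionine cycle genes were 4 in every such fit, against 5 in the main fit. Rises in choline uptake and phosphatidylcholine synthesis were 9 to 10 and its falls 4 to 7.

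Log2 fold changes of members with limma on log2(TPM + 1) and log2(TPM + 0.1) were -0.089 and -0.57 for Chdh, -0.38 and -0.38 for Aldh7a1, 4.20 and 5.06 for Bhmt, 3.13 and 4.63 for Bhmt2, 4.06 and 5.27 for Dmgdh, -0.94 and -1.18 for Gnmt, -0.056 and -0.061 for Ahcy, and -0.10 and -0.11 for Pemt. With counts from length-scaled TPM they were 5.58 for Dmgdh, 0.043 for Ahcy and -0.014 for Pemt. With at least 10 counts in every sample, Pemt had 0.11 and Chdh could not be fitted. With copies summed, chosen after the data were seen, Ahcy had 0.26. With 1 library left out, the ranges were 5.20 to 5.36 for Bhmt, 5.06 to 5.18 for Bhmt2, 5.79 to 5.95 for Dmgdh, -1.56 to -0.999 for Chdh, -0.35 to -0.26 for Aldh7a1, -1.16 to -1.04 for Gnmt, 0.11 to 0.24 for Mat2a, 0.12 to 0.20 for Ahcy and 0.13 to 0.17 for Pemt. Low counts limit Chdh and Sardh, and the division of reads between copies limits Ahcy. The causes of these shifts were not tested.

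By estimated counts, shares in TKO-2i and TKO-serum were 88.6% and 85.8% for Ahcy-201, 99.98% and 98.7% for Dmgdh-201, 74.3% and 80.0% for Mat2a-201, and 59.9% and 64.8% for Pemt-203. They were 2.51% and 2.08% for the Mat2a transcripts with a retained intron and 10.4% and 13.8% for that of Ahcy. The motifs were found in the same members without the bases after the start.

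Of 851 values of 61 named genes under an alternative, 812 kept direction and side of the threshold, 30 (9 genes) were no longer past it, 7 (4 genes) passed newly, and 2 reversed, both for Akr1b3 (-0.16 to 0.052 with 1 library left out), at 0.052 without TKO-2i replicate 2 and 0.013 without TKO-serum replicate 1.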
